A study of Mus musculus with 6 samples.

Results

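The genes followed here act in the breakdown of the extracellular matrix. They are the matrix metalloproteases Mmp2, Mmp3, Mmp9, Mmp11, Mmp12, Mmp13 and Mmp14 and the tissue inhibitors of metalloproteases Timp1, Timp2 and Timp3. They were taken by symbol, as the genes of probe sets whose platform annotation names a single gene. All 10 had such a probe set, 11 probe sets in all, of 22180 genes with 23521 single-gene probe sets in the table. Mmp11 had 2 probe sets and every other gene had 1. The group labelled Brca1Tumor held 3 mammary tumors (numbers 23, 24 and 25) of females with the genotype Trp53L/L;Brca1L/L. They were collected months after Ad-K8-Cre, an adenovirus with Cre recombinase under a promoter of the luminal keratin K8, had been injected into the mammary ducts. The labels call these tumors Trp53/Brca1-null. The K8wt group held 3 samples (mice 1, 2 and 4) of wild-type luminal mammary epithelial cells. These cells, positive for YFP, were sorted out of females carrying the reporter Rosa26-Stop-YFP, 10 to 14 days after the same virus. Both groups thus received Ad-K8-Cre, and the animals' ages are not given in the labels. A sort is described for the wild-type cells only, so tumor RNA can hold RNA of any cell in the tumor. The wild-type samples are labelled as separate mice, whereas the labels leave unsaid whether each tumor had its own mouse. If any shared a mouse, the p-values measure in part the spread within an animal.

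Matrix metalloproteases are zinc enzymes that cut collagens, elastin, proteoglycans and other proteins outside the cell. Most are secreted as inactive proenzymes and are activated by removal of a propeptide, while Mmp14 is anchored in the cell membrane. Timp proteins bind the active site of these enzymes and block it. In the mammary gland the family takes part in duct branching and in the remodelling after lactation, and in tumors much of it is made by macrophages and fibroblasts as well as by cancer cells.

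Of all genes measured, 867 passed the test, 559 higher and 308 lower in tumors, or 64.5% higher among those called. Centring the arrays on housekeeping genes turned this to 7.3% higher among 7523 calls, because it moved the median difference of all genes by -0.62 log2 units. The 13 housekeeping genes measured themselves averaged 8.45 in tumors and 7.83 in wild-type samples, with 11 higher in tumors. In limma 1 of them rose (2.52% of all genes) and 8 had an unadjusted p under 0.05 (26.4% of all genes). The cause of their difference was not tested. Levels are RMA values on the log2 scale, and differences are the tumor mean minus the wild-type mean, with the moderated SE of limma. A call is an adjusted p under 0.05 in limma, Benjamini-Hochberg over all 22180 genes. Olfactory receptor genes, 1105 in number, served to mark the background, at their 95th percentile on each array. This mark was at 3.24 to 3.45 on tumor arrays and at 3.70 to 3.86 on wild-type arrays. The 10 luminal marker genes averaged 8.17, 6.96 and 7.41 in tumors 23, 24 and 25 and 8.88, 9.37 and 9.61 in wild-type samples 1, 2 and 4, and none of them lay under the mark on all arrays of a group.

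Of the 10 genes, Mmp12 and Mmp2 rose in tumors and none fell. The elastase gene Mmp12 was 4.21 ± 0.69 log2 units higher (SE) and the gelatinase gene Mmp2 1.45 ± 0.27 higher (n = 3 tumors and 3 wild-type samples). Genes called higher made up 2.52% of all genes tested and genes called lower 1.39%, together 3.91%. For 6 of the 10 (Mmp2, Mmp9, Mmp11, Mmp12, Mmp13 and Timp3) all 3 tumors lay above all 3 wild-type samples, and for none did all tumors lie below. Over all genes, 14.0% were separated upward and 22.4% downward, 36.4% in all. Mean levels were higher in tumors for 9 of the 10 genes, all but Mmp14, against 9247 of 22180 genes overall; the 9 became 8 after a renewed quantile normalization and after cyclic loess, where Timp2 turned, and 7 after centring on housekeeping genes, where Timp2 and Mmp11 turned. The median difference of the 10 was 1.19, against -0.12 over all genes. Among genes with a mean of at least 5, whose median difference was 0.32, 5 of the 7 metalloprotease and inhibitor genes kept lay above that median.

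The count of calls changed with each array left out, and so did the count over all genes. It was 4 without tumor 24, where Timp3 and Mmp14 passed as well and 5.41% of all genes were called, and 1 without tumor 25, with 1.69% of all genes. It was 0 in limma without tumor 23 (0.640% of all genes called) and without wild-type sample 1 (0.622%), 2 (0.766%) or 4 (0.325%). In those sets with 0 calls, 6 of the 10 genes had an unadjusted p under 0.05 without tumor 23 (20.6% of all genes), 3 without sample 1 (21.3%), 3 without sample 2 (21.5%) and 4 without sample 4 (21.2%). With all arrays 5 of the 10 did, against 26.4% of all genes.

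**Figure D1:**
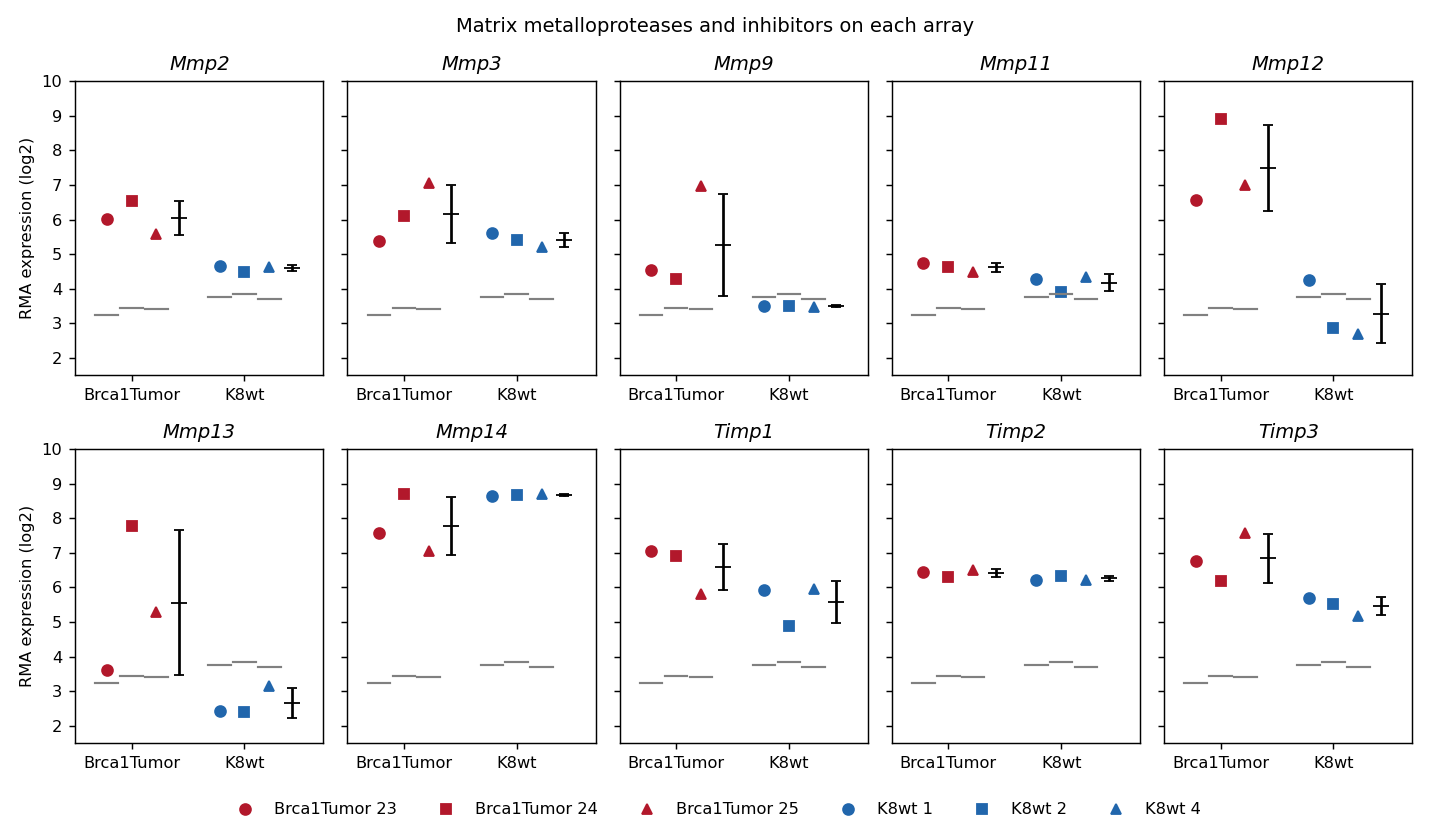
RMA expression (log2) of the 10 genes on each array, with the 3 tumors (red) left of the 3 wild-type samples (blue). Black dashes with bars are means ± SD (n = 3) and grey dashes are the background mark of each array; Mmp12 has its lowest tumor at 6.57 and its highest wild-type sample at 4.26, while the wild-type values of Mmp14 lie between 8.64 and 8.69.

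Mmp12, the macrophage elastase, cuts elastin and many other matrix proteins and is named for the cells in which it is best known. Its level was 6.57, 8.90 and 7.00 in tumors 23, 24 and 25 and 4.26, 2.88 and 2.71 in wild-type samples 1, 2 and 4. The lowest tumor thus lay 2.31 log2 units above the highest wild-type sample, and tumor 24 stood above the other tumors. Mmp12 averaged 7.49 ± 1.24 over tumors and 3.28 ± 0.85 over wild-type samples (SD, n = 3), an 18.5-fold difference of RMA values with an adjusted p of 0.033. Wild-type samples 2 and 4 lay under the background mark. With those values set to the mark of their array, Mmp12 was at least 11.7-fold higher in tumors. The call was lost without tumor 23 (a difference of 4.67, adjusted p of 0.059), without tumor 25 (4.46, 0.067) and without wild-type sample 1 (4.70, 0.065), 2 (4.01, 0.10) or 4 (3.92, 0.11), and it held without tumor 24 (3.50, 0.027).

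Most macrophage marker genes were higher in the same tumors. Of 12 measured, 6 rose (C1qa, C1qb, Csf1r, Adgre1, C1qc and Cd68) and none fell, against 2.52% of all genes called higher. For 10 the groups did not overlap, upward, as for 14.0% of all genes. The groups overlapped for Lyz2 and Cd14, and Cd14 had a lower mean in tumors (-0.71 ± 0.66, SE, adjusted p of 0.50). The mean of the list was 7.15, 6.63 and 6.30 in tumors 23, 24 and 25, against 4.93, 4.87 and 4.18 in wild-type samples 1, 2 and 4. Mmp12 was highest in tumor 24 and the mean of the macrophage list in tumor 23. Not every marker followed that mean. Fcgr1 (5.31, 5.59 and 4.44 in tumors 23, 24 and 25) and Mrc1 (4.34, 4.93 and 3.87) were highest in tumor 24. C1qc (5.23, 4.90 and 5.74) was highest in tumor 25, and the other markers of the list in tumor 23. Adgre1, Fcgr1, C1qc and Mrc1 lay under the mark on all wild-type arrays, and no macrophage gene did so on all tumor arrays. The part of these cells in the Mmp12 result was not tested. In bulk RNA, more cells of a type and more RNA per cell cannot be told apart.

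Mmp2 and Mmp9 encode the gelatinases, which cut denatured collagen and the collagen of basement membranes. Mmp2 measured 6.03, 6.55 and 5.58 in tumors 23, 24 and 25 and 4.66, 4.49 and 4.63 in wild-type samples 1, 2 and 4. The wild-type samples lay within 0.16 of each other, and the tumors within 0.97. Mmp2 averaged 6.05 ± 0.48 over tumors and 4.60 ± 0.09 over wild-type samples (SD, n = 3), 2.74-fold apart with an adjusted p of 0.042. The call was lost without tumor 23 (1.47, adjusted p of 0.10) and without wild-type sample 1 (1.49, 0.11), 2 (1.40, 0.11) or 4 (1.47, 0.12), and also after centring on housekeeping genes (0.83, 0.11). That centring takes the same value from all genes of an array. The difference of Mmp2 relative to their median, 1.57, thus stays the same by construction.

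Mmp9, the other gelatinase, is abundant in neutrophils and macrophages. It measured 4.55, 4.28 and 6.96 in tumors 23, 24 and 25 and 3.51, 3.51 and 3.49 in wild-type samples 1, 2 and 4. All 3 tumors lay above the wild-type samples, tumor 25 by 3.46 log2 units over the wild-type mean and tumor 24 by 0.77. The difference of 1.76 ± 0.68 (SE) did not pass, with an adjusted p of 0.17 and a 95% interval of 0.13 to 3.39. In all 3 wild-type samples Mmp9 was under the background mark, and against the mark the tumor mean was at least 2.81-fold higher. The difference was 0.91 without tumor 25 (adjusted p of 0.095) and 1.14 after centring on housekeeping genes. The neutrophil list averaged 4.20, 3.67 and 3.66 in tumors 23, 24 and 25 and 3.87, 3.54 and 3.06 in wild-type samples 1, 2 and 4, with 0 of 9 genes called in limma (4 with an unadjusted p under 0.05, against 26.4% of all genes). Of those 9, 5 lay under the mark on all tumor arrays and 4 on all wild-type arrays. Of the markers above it in all tumors, S100a8 (8.46, 5.72 and 6.31 in tumors 23, 24 and 25), S100a9 (6.18, 4.08 and 4.93) and Cxcr2 (4.51, 4.35 and 4.02) were highest in tumor 23, and Csf3r (4.20, 5.56 and 3.82) in tumor 24. The part of neutrophils in the Mmp9 values was not tested.

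Mmp14, the membrane-bound metalloprotease, cuts fibrillar collagen and converts the proenzyme of Mmp2 to its active form, for which Timp2 serves as the bridge at the cell surface. It was the only gene of the 10 with a lower mean in tumors in the deposited scaling, joined by Timp2 under the 3 other scalings and by Mmp11 under housekeeping centring. Its level was 7.57, 8.69 and 7.06 in tumors 23, 24 and 25 and 8.64, 8.67 and 8.69 in wild-type samples 1, 2 and 4. Tumor 24 lay within the wild-type range, and tumors 23 and 25 lay 1.10 and 1.60 below the wild-type mean. The difference of -0.90 ± 0.40 (SE) did not pass with all arrays (adjusted p of 0.21, 95% interval of -1.86 to 0.07). It was -0.54 without tumor 25, and it passed without tumor 24 (-1.35, adjusted p of 0.035) and after centring on housekeeping genes (-1.52, 0.042). The wild-type SD of 0.03 was smaller than that of all but 1.14% of genes.

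Timp2 measured 6.45, 6.30 and 6.52 in tumors 23, 24 and 25 and 6.23, 6.33 and 6.22 in wild-type samples 1, 2 and 4, so the groups overlapped. The difference was 0.16 ± 0.16 (SE) with an adjusted p of 0.51 and a 95% interval of -0.22 to 0.54, and it turned negative under cyclic loess, a renewed quantile normalization and housekeeping centring. Among Mmp2, Mmp14 and Timp2, then, Mmp2 was higher in each of the 3 tumors, while Mmp14 matched the wild-type level in tumor 24 alone and Timp2 stayed within 0.26 of the wild-type mean in every tumor.

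Mmp13 encodes the main interstitial collagenase of mice, which opens the triple helix of fibrillar collagen. It was at 3.61, 7.77 and 5.30 in tumors 23, 24 and 25 and at 2.42, 2.39 and 3.16 in wild-type samples 1, 2 and 4. Every tumor lay above the wild-type samples, and the tumors themselves spanned 4.16 log2 units. Mmp13 averaged 5.56 ± 2.09 over tumors and 2.66 ± 0.43 over wild-type samples (SD, n = 3), and the difference of 2.91 ± 0.97 (SE) did not pass (adjusted p of 0.13, 95% interval of 0.57 to 5.24). It was 1.80 without tumor 24. All 3 wild-type values lay under the mark, and against the mark the tumor mean was at least 3.46-fold higher. Tumor 23, at 3.61, lay above the mark of its own array (3.24) but below that of each wild-type array (3.70 to 3.86). The tumor SD of Mmp13 exceeded that of 99.7% of genes.

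Mmp3 encodes stromelysin, which cuts proteoglycans, laminin and fibronectin and activates other metalloproteases. It measured 5.37, 6.10 and 7.05 in tumors 23, 24 and 25 and 5.61, 5.42 and 5.21 in wild-type samples 1, 2 and 4. Tumor 23 lay within the wild-type range, and tumor 25 lay 1.63 above the wild-type mean. The difference of 0.76 ± 0.42 (SE) did not pass (adjusted p of 0.28, 95% interval of -0.23 to 1.76). It was 0.33 without tumor 25, 1.16 without tumor 23 and 0.14 after centring on housekeeping genes.

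Mmp11, another stromelysin, is activated inside the cell and is known from the stroma of carcinomas. Its brighter probe set gave 4.75, 4.62 and 4.48 in tumors 23, 24 and 25 and 4.29, 3.91 and 4.34 in wild-type samples 1, 2 and 4. The groups did not overlap, by a margin of 0.14. The difference of 0.44 ± 0.19 (SE) did not pass (adjusted p of 0.20, 95% interval of -0.02 to 0.90) and turned to -0.18 after centring on housekeeping genes. The dimmer probe set lay under the mark on 5 of 6 arrays and differed by 0.37 ± 0.33 (SE, adjusted p of 0.48 with probe sets tested singly).

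Among the inhibitors, Timp1 is the soluble form induced by cytokines and wounding. It measured 7.06, 6.90 and 5.82 in tumors 23, 24 and 25 and 5.93, 4.89 and 5.94 in wild-type samples 1, 2 and 4. Tumor 25 fell within the wild-type range and the other two tumors lay above it. The difference of 1.01 ± 0.43 (SE) did not pass (adjusted p of 0.20, 95% interval of -0.03 to 2.04). It was 0.66 without wild-type sample 2 and 0.39 after centring on housekeeping genes.

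Timp3 is bound to the matrix and also inhibits proteases of the Adam and Adamts families. It measured 6.77, 6.17 and 7.58 in tumors 23, 24 and 25 and 5.69, 5.52 and 5.19 in wild-type samples 1, 2 and 4. All tumors lay above the wild-type samples, tumor 24 by the least. The difference of 1.37 ± 0.37 (SE), 2.59-fold, did not pass with all arrays (adjusted p of 0.091, 95% interval of 0.49 to 2.26) and passed without tumor 24 (1.70, adjusted p of 0.042). After centring on housekeeping genes it was 0.75.

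**Figure D2:**
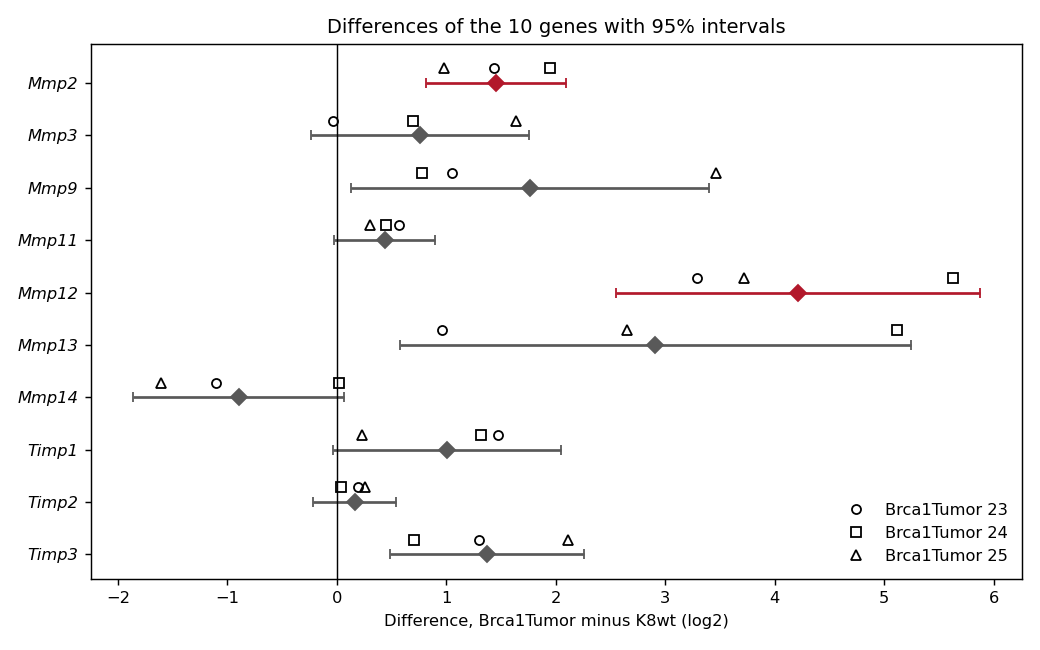
Difference in log2 RMA values, tumor minus wild type, for the 10 genes. Diamonds with bars are the limma estimate and its 95% interval, red where the adjusted p is under 0.05, and open symbols give each tumor minus the wild-type mean; Mmp12 reaches 5.62 in tumor 24, and Mmp14 lies at -1.60 in tumor 25 and at 0.02 in tumor 24.

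The 10 genes did not share 1 order among the tumors. Tumor 24 had the highest value of Mmp2, Mmp12, Mmp13 and Mmp14 and the lowest of Mmp9, Timp2 and Timp3. Tumor 25 had the highest value of Mmp3, Mmp9, Timp2 and Timp3 and the lowest of Mmp2, Mmp11, Mmp14 and Timp1. Tumor 23 was highest for Mmp11 and Timp1 and lowest for Mmp3, Mmp12 and Mmp13. The SD between tumors was larger than that between wild-type samples for 9 of the 10 genes, all but Mmp11, as it was for 51.5% of all genes. The tumor SD was above that of 98.7% of genes for Mmp9 and of 97.6% for Mmp12, and the wild-type SD was 0.02 for Mmp9, a gene under the mark there.

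Mmp13, Mmp12 and Mmp3 are neighbours. In the RefSeq gene order of assembly GRCm38.p6, 10 metalloprotease genes follow each other on chromosome 9 with no other protein-coding gene between them, in the order Mmp13, Mmp12, Mmp1b, Mmp3, Mmp1a, Mmp10, Mmp8, Mmp27, Mmp20 and Mmp7. All 10 were measured, and Mmp12 alone was called, against 3.91% of all genes. Mmp13 and Mmp12, at one end, had non-overlapping groups upward, Mmp1b and Mmp20 downward, and the other 6 overlapped, against 14.0% of all genes separated upward and 22.4% downward. In this run 5 genes, Mmp1b, Mmp1a, Mmp8, Mmp27 and Mmp20, lay under the background mark on all 6 arrays. Mmp7, matrilysin, at the far end, was at 7.19, 3.96 and 4.09 in tumors 23, 24 and 25 and at 3.77, 4.28 and 3.94 in wild-type samples 1, 2 and 4, so it was high in tumor 23 alone, the tumor in which Mmp13, Mmp12 and Mmp3 were lowest. Its difference of 1.08 ± 0.85 (SE) did not pass (adjusted p of 0.42).

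**Figure D3:**
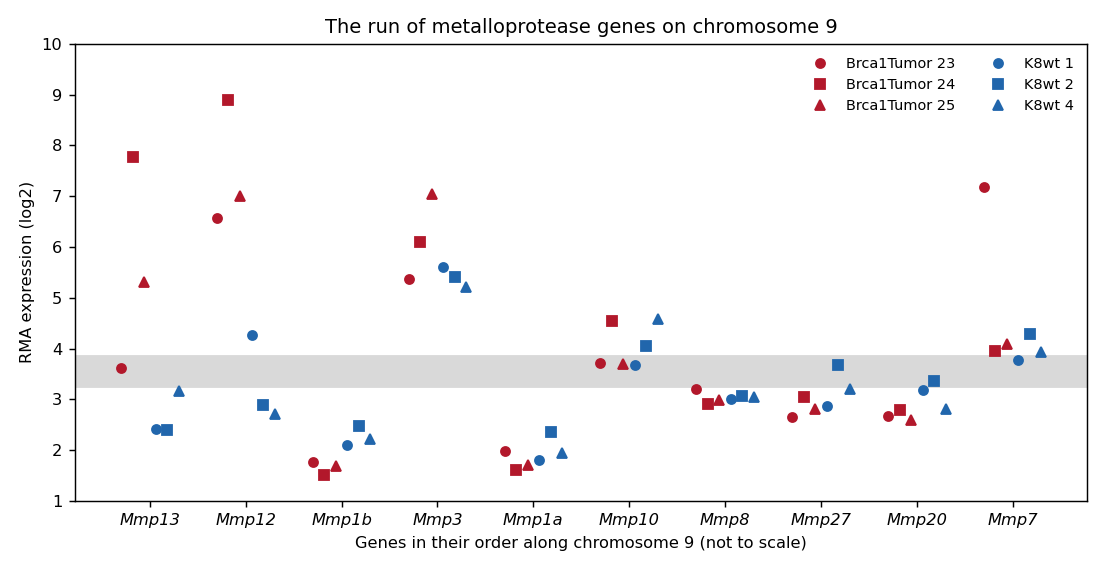
RMA expression (log2) on each array of the 10 metalloprotease genes that follow each other on chromosome 9, in gene order and not to scale, with tumors in red left of wild-type samples in blue. The grey band spans the background marks of the 6 arrays; Mmp12 stands above it in all tumors, Mmp7 is at 7.19 in tumor 23, and 5 genes lie under their marks throughout.

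Promoters of this family are a textbook example of control by AP-1, the dimer of Fos and Jun proteins, so the start regions of the neighbours are shown with the match to its motif TGANTCA. RefSeq windows of assembly GRCm38.p6, with 250 bases before and 50 after a start, were given for 8 of the 10 genes followed here (9 windows). Mmp2 and Mmp9 had no window and were not searched. The motif, read on both strands, occurred in 3 windows, those of Mmp3, Mmp13 and 1 of the 2 starts of Mmp12, and in 7.81% of all 32851 windows. Along the chromosome 9 run it was found for 8 of 10 genes, all but Mmp8 and Mmp27. The last 120 bases before each start follow, 5′ to 3′, all on the + strand, with the match in capitals. They cover chr9:7272394-7272513 for Mmp13, chr9:7347254-7347373 for Mmp12 and chr9:7445702-7445821 for Mmp3.
Mmp13: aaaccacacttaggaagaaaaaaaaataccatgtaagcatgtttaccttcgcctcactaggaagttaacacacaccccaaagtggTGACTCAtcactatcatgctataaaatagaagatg
Mmp12: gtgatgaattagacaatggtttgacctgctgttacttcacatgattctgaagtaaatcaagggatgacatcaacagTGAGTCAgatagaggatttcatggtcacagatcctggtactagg
Mmp3: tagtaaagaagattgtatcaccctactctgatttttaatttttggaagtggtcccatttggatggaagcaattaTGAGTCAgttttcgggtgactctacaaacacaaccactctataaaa
The matches begin 35, 44 and 46 bases before the start of Mmp13, Mmp12 and Mmp3. A match of letters is a description of the window and no evidence of binding.

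The genes named above were set beside other parts of the same system. Of 16 further measured genes of the family (15 Mmp genes and Timp4), 0 were called in limma, and 4 had an unadjusted p under 0.05, near the 26.4% of all genes. Their median difference was -0.24, and 8 of the 16 lay under the mark on all 6 arrays. The smallest adjusted p belonged to the membrane-type metalloproteases Mmp16 (-1.04 ± 0.28, SE, adjusted p of 0.091), which lay under the mark on all tumor arrays, and Mmp24 (-0.57 ± 0.17, adjusted p of 0.11), which lay above it on all arrays.

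Among 18 genes of activation and control, Reck rose and Plaur fell, against 3.91% of all genes called. The median difference of the list was 0.17. Reck, a membrane-anchored inhibitor of Mmp2, Mmp9 and Mmp14, measured 7.73, 5.90 and 7.95 in tumors 23, 24 and 25 and 4.88, 4.05 and 4.12 in wild-type samples 1, 2 and 4. It was 2.84 ± 0.57 higher (SE) with an adjusted p of 0.049, close to the threshold. Its call was lost with probe sets tested singly (0.051), after cyclic loess (0.054) and a renewed quantile normalization (0.062), without tumor 23 (0.12) or 25 (0.11), and without wild-type sample 1 (0.11), 2 (0.13) or 4 (0.14). Plaur, the receptor of the plasminogen activator urokinase, measured 6.05, 6.18 and 6.10 in tumors and 8.40, 8.69 and 9.32 in wild-type samples. It fell by 2.70 ± 0.26 (SE), with an adjusted p of 0.012, and passed in all 6 sets with 1 array left out. Its ligand Plau (-0.61 ± 0.40, adjusted p of 0.35) and the proenzyme convertase Furin (-0.03 ± 0.27, adjusted p of 0.95) did not pass.

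Of 16 measured Adam and Adamts proteases, the relatives that shed surface proteins or cut proteoglycans, Adamts10 alone was called, against 3.91% of all genes. The list median was 0.40. Adamts10, a protease linked to microfibrils, measured 4.59, 4.19 and 4.33 in tumors 23, 24 and 25 and 2.73, 2.53 and 2.89 in wild-type samples 1, 2 and 4. The wild-type values lay under the mark. Against the mark it was at least 1.51-fold higher in tumors (adjusted p of 0.016 for the measured values), and it did not pass without tumor 23 (adjusted p of 0.052) or wild-type sample 1 (0.062), 2 (0.053) or 4 (0.067).

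Among 17 measured inducers of metalloprotease genes, 5 fell and none rose, with a median difference of -0.72. Over all genes, 1.39% fell and 2.52% rose. Mean levels were higher in tumors for 5 of the 17 and lower for 12, against 9247 and 12933 of all 22180 genes. The groups did not overlap upward for 2 and downward for 7, against 14.0% and 22.4% of all genes. Those 2 were the transcription factors Etv5 (2.38 ± 0.60, SE, adjusted p of 0.081 in limma) and Etv4 (0.92 ± 0.38, 0.19), which did not pass. A sort is described for the wild-type cells only, and its part in these differences was not tested. The AP-1 genes Fosb (-5.10 ± 0.38, SE), Fos (-2.41 ± 0.21) and Jund (-1.53 ± 0.16) fell with adjusted p of 0.0063, 0.0089 and 0.014. With the mean of its probe sets in place of the brightest, Jund differed by -0.92 (adjusted p of 0.034 in limma). In tumor 24, Fosb was at 3.46, close to the mark of 3.45. The transcription factor Ets2 fell by 1.93 ± 0.28 (adjusted p of 0.026). The cytokine Il6 fell too (adjusted p of 0.019); it lay under the mark in tumors 24 and 25, and with those values set to the mark it was at least 9.96-fold lower in tumors. Fos and Fosb passed in all 6 sets with 1 array left out; Jund did not pass without wild-type sample 4 (0.067), Il6 without sample 1 (0.062), 2 (0.061) or 4 (0.073), and Ets2 without tumor 23 (0.067) or 25 (0.066) or without sample 2 (0.065) or 4 (0.096). The AP-1 genes Jun (-0.96 ± 0.61) and Junb (-0.54 ± 0.36) did not pass. Of the followed genes with an AP-1 match (Mmp3, Mmp12 and Mmp13), Mmp12 alone was called, and it rose. For Mmp2, the other called gene, and for Mmp9 no window was given to search. A link between the RNA of AP-1 genes and these genes was not tested.

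Of 15 measured matrix proteins that metalloproteases cut, Fn1 and Vcan rose, against 2.52% of all genes. The median difference of the list was 0.97. Fibronectin, Fn1, was 3.39 ± 0.56 higher (SE, adjusted p of 0.033) and the proteoglycan versican, Vcan, 2.05 ± 0.26 higher (adjusted p of 0.018). The fibrillar collagen genes Col1a1, Col1a2 and Col3a1 did not pass, and each was highest in tumor 24, at 8.74, 8.29 and 7.78, the tumor with the highest Mmp13 and Mmp2. Of the other collagen genes listed, Col5a1 (5.60) and Col7a1 (5.91) were also highest in tumor 24. Col2a1 (5.99), Col4a1 (6.18) and Col4a2 (6.16) were highest in tumor 25. None of these passed either, and a link to the metalloproteases was not tested. The call of Fn1 was lost without tumor 23 (0.066) or 25 (0.050) or wild-type sample 1 (0.10), 2 (0.065) or 4 (0.11), and that of Vcan without tumor 23 (0.059) or sample 2 (0.056) or 4 (0.081). Over the 82 measured genes of these lists 10 were called, against 3.91% of all genes. The count was 5 without tumor 23 (0.640% of all genes) and 6 without wild-type sample 1 (0.622%). It was 4 without sample 2 (0.766%) and 3 without sample 4 (0.325%).

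**Figure D4:**
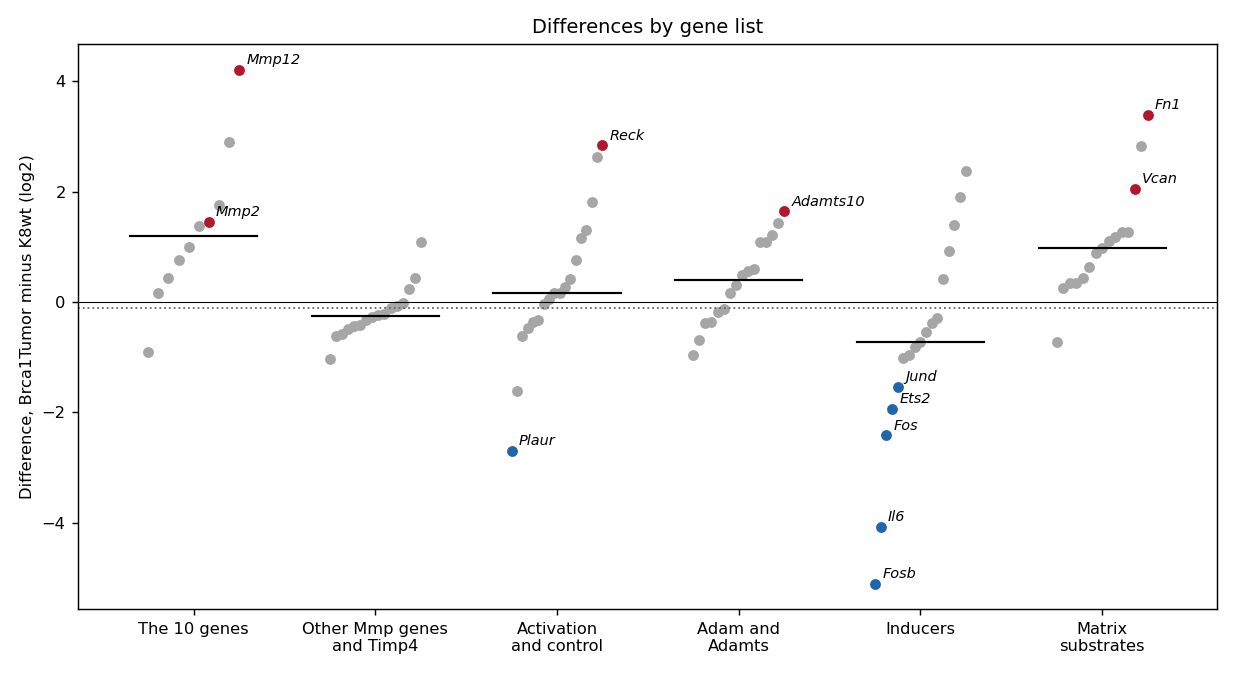
Differences in log2 RMA values, tumor minus wild type, with each point a gene of the list named below it. Red points rose and blue points fell (adjusted p under 0.05), grey points were not called, black bars are list medians and the dotted line is the median of all genes, -0.12; the inducers have a median of -0.72 and the 10 genes followed here one of 1.19.

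Fibroblasts are a known source of Mmp2, Mmp3, Mmp11, Mmp13, Mmp14 and Timp genes. Of 11 measured fibroblast markers Pdgfrb alone rose and none fell, against 2.52% of all genes called higher and 1.39% called lower. Pdgfrb, a growth factor receptor, was under the mark in 2 of the 3 wild-type samples, and with those set to the mark it was at least 5.26-fold higher in tumors (adjusted p of 0.035). The markers did not move one way: Dcn, the proteoglycan decorin, differed by -2.76 with every tumor below every wild-type sample (adjusted p of 0.052), and Dpt by -2.30 with overlapping groups (0.15). The list mean was 6.28, 6.76 and 5.40 in tumors 23, 24 and 25, against 5.90, 5.52 and 5.32 in wild-type samples 1, 2 and 4, and no marker lay under the mark on all arrays of either group. Tumor 24 was highest for this list, as for Mmp2, Mmp13 and Mmp14. Mmp3, Timp2 and Timp3 were instead highest in tumor 25, and Mmp11 and Timp1 in tumor 23. Not every marker of the list peaked in tumor 24 either: Dcn and Dpt, for instance, were highest in tumor 23. The part of fibroblasts in these results was not tested. Skeletal muscle markers were high in tumors 23 (8.64) and 25 (5.68) but not in 24 (3.43), against 3.33 to 3.55 in wild-type samples, with 0 of 11 called in limma (2 with an unadjusted p under 0.05, against 26.4% of all genes) and 7 under the mark on all wild-type arrays. Endothelial markers averaged 4.38, 4.46 and 5.32 in tumors 23, 24 and 25 and 4.83, 4.78 and 4.31 in wild-type samples 1, 2 and 4, highest in tumor 25, where Mmp9, Mmp3 and Timp3 were highest too. None of those 8 genes was called in limma, and 0 had an unadjusted p under 0.05, against 26.4% of all genes. The part of endothelial cells in these values was not tested. The mean of the luminal markers was lower in every tumor than in every wild-type sample, with 2 of 10 called, Spint2 and Cd24a, both lower. Genes called lower made up 1.39% of all genes. Of 7 basal markers Myh11 fell, and of 5 pericyte, 7 adipocyte and 6 T cell markers 0 were called in limma, with 2, 2 and 0 at an unadjusted p under 0.05 (26.4% of all genes).

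**Figure D5:**
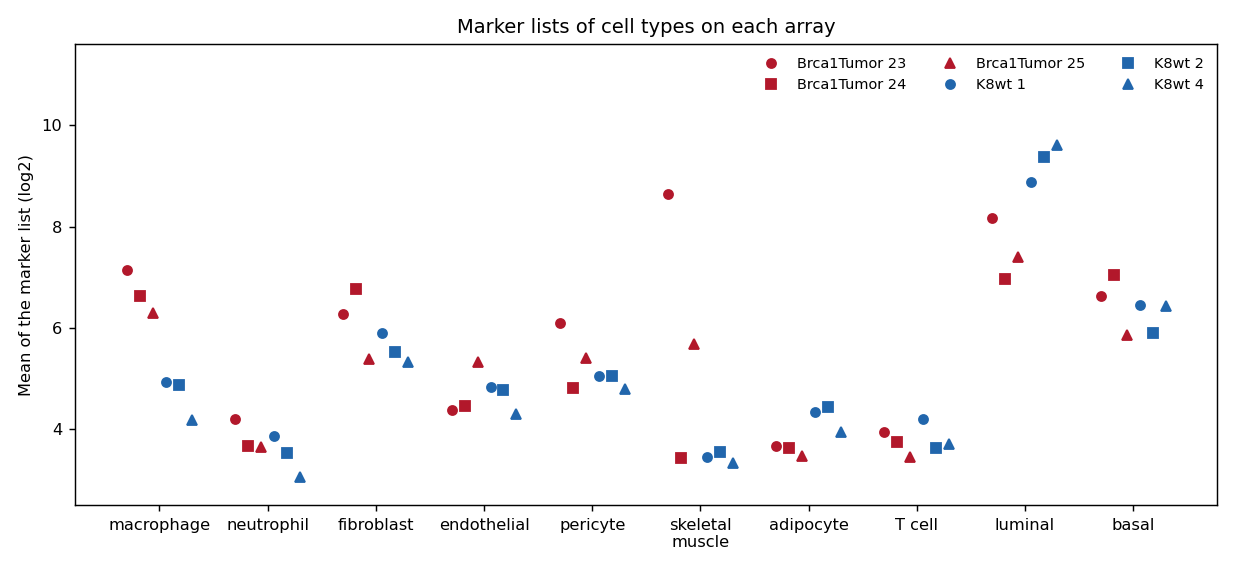
Mean log2 RMA value of each cell type's marker list on each array, with tumors in red left of wild-type samples in blue. The macrophage list lies above all wild-type samples in every tumor, the skeletal muscle list does so in tumors 23 and 25, and the luminal list lies below all wild-type samples in every tumor.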

How the data were processed

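Total RNA of 6 samples was amplified with a NuGEN kit, labelled with biotin and hybridised to expression arrays, per the labels' protocols. The authors deposited 1 log2 value for each probe set and array, made with RMA and oligo according to the submitters' processing notes (versions not given in the sources used here). Arrays are drawn towards 1 distribution by RMA, and differences near background are compressed. Scanner files were not used, and so detection calls and batches were not examined; precision is limited by the number of arrays. Of 41345 probe sets, 23521 named 1 gene, 1814 several and 16010 none in the platform annotation; 23328 of the 23521 were matched to RefSeq by Entrez identifier. The brightest probe set stood for each gene. Tumors and wild-type cells were compared by limma 3.58.1 (R 4.3.3, lmFit and eBayes, two-sided, Benjamini-Hochberg over 22180 genes), which was tested on simulated data. There it called 8% of genes changed by 1 log2 unit, 54% by 2, 72% by 3 and 92% by 4. Of 115 calls in the simulated data, 2 were false. Changes of 1 to 2 log2 units can thus be missed with these arrays. The members, gene lists, background mark and tests were chosen with earlier results of these data known. Named were all members, the called genes of each pathway list (or the 2 with the smallest adjusted p) and marker lists by their means. Added after their values were seen were Plau, Furin, Jun, Junb, Mmp7, the collagen genes, Dcn, Dpt, Cd14, Lyz2, S100a8, S100a9, Cxcr2 and Csf3r. So were Etv4, Etv5, Fcgr1 and Mrc1. Alternatives were filters on dim genes, other uses of probe sets, 3 scalings, another prior, array weights and leaving out each array. Sequences are from RefSeq, GRCm38.p6.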

Additional observations from a re-analysis of the deposited data

How the results depend on the processing

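No paired analysis was possible because the groups share no replicate numbers. Leaving out each array in turn gave 72 to 1200 called genes in all (142 without tumor 23, 1200 without 24, 375 without 25, and 138, 170 and 72 without wild-type samples 1, 2 and 4), 0 to 4 of the 10 metalloprotease and inhibitor genes, and 3 to 12 of the pathway genes. Centring on the housekeeping list gave 7523 called genes and 33 pathway genes, and array weights gave 1324 called genes. Of the 10 genes, 2 were called under each of the 9 other settings, Mmp12 and Mmp2 in 8 of them and Mmp12 and Mmp14 after housekeeping centring. Mmp11 turned to -0.18 with that centring, and Timp2 to -0.46 with it, -0.09 after a renewed quantile normalization and -0.04 after cyclic loess. The causes were not tested. Quantile normalization moved the median of all genes by 0.10 and cyclic loess by 0.15. Mmp12 differed by 3.50 to 4.70 over all alternatives (adjusted p of 0.0032 to 0.11), and Mmp2 by 0.83 to 1.69 (adjusted p of 0.030 to 0.12). Wild-type levels of Mmp9 and Mmp13 were not told from background, so the sizes of their differences are not settled.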
